A study of Mus musculus with 12 samples.

Results

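The genes described here carry the response to vitamin D and the uptake of calcium, magnesium and phosphate across the bowel lining. They are Vdr, Cyp24a1, Trpv6, Trpm6, S100g, Atp2b1, Atp2b4 and Slc34a2, chosen by name and matched by gene symbol to the deposited table of 17734 genes. The choice was made with earlier results of these data known, so counts set beside all genes are a description and no test. Of these 8 genes, 7 were found and all 7 were tested. Cyp24a1, the enzyme that breaks active vitamin D down, was not analysed here. The 7 genes were lower in colitis mice than in normal mice, as were 73.7% of all genes tested. An unadjusted P limit of 0.05 was passed by 6 of them, against 15.9% of all genes that were lower past it, and an adjusted limit of 0.05 by none. In some other fits 2 or 3 of the 7 passed the adjusted limit, where more of all genes passed it too. In colitis mice receiving berberine (BBR) their levels differed widely from mouse to mouse, and S100g was the 1 gene past the P limit against colitis mice.

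Active vitamin D binds the vitamin D receptor, encoded by Vdr, a nuclear receptor that pairs with a retinoid X receptor on DNA and raises the transcription of genes for calcium handling. In the best known route, calcium enters the epithelial cell through the apical channel TRPV6, crosses the cytoplasm bound to calbindin-D9k, the product of S100g, and leaves through the plasma membrane calcium pump PMCA1, encoded by Atp2b1. PMCA4, encoded by Atp2b4, is a second such pump and is widely expressed, in smooth muscle among other tissues. TRPM6 is a magnesium channel of the large bowel and kidney with its own kinase domain, and SLC34A2 is a sodium-dependent phosphate cotransporter of epithelial surfaces.

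RNA was taken from the bowel of 12 male C57BL/6 mice, 8 to 10 weeks old by the study's methods, with 3 mice in each of 4 groups. The study's methods call the tissue rectal and the labels call it colorectum. Colitis mice drank 2.5% dextran sulfate sodium (DSS), a polymer that injures the bowel lining, for 7 days, and normal mice drank water. BBR, a plant alkaloid, was delivered daily into the stomach at 100 mg/kg in a group of normal mice and a group of colitis mice, for 7 days by the sample characteristics and for 6 days by the treatment protocol in the labels. Normal mice and normal mice with BBR carry the numbers 1, 3 and 4, colitis mice the numbers 1, 2 and 4, and colitis mice with BBR the numbers 2, 3 and 4. A bulk sample cannot tell fewer cells of a type from less RNA per cell.

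Values are read as FPKM, which is scaled to transcript length and sequencing depth, so levels of different genes can be set side by side. The 4 mice numbered 4, 1 in each group, stand apart from the other 8. Their column totals were 482194 to 504337 FPKM against 696286 to 765876, and 872 to 1086 genes were at 0 against 1332 to 1926. Differences between these mice are therefore given beside those of the other mice for some of the genes in each comparison of 2 groups. Ratios between genes of the same mouse do not depend on the column total. The markers of colon epithelium were present in every mouse, with Epcam at 780 to 1201 FPKM and Car1 at 698 to 6947 FPKM, and of the small intestinal markers Sis and Lct were at most 0.17 and 0.06 FPKM, whereas Fabp2 was at 9.16 to 80.4 FPKM and Apob at 6.20 to 45.7 FPKM. Fold changes, standard errors (SE) and P values come from a limma fit of log2(FPKM + 0.1) over the 12 mice and 15315 genes. The adjusted p follows Benjamini and Hochberg and counts all 15315 genes. Exact p-values come from permuting the mice of 2 groups on the same log2 scale, two-sided, and are never under 0.1 with groups of 3.

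Since the 7 genes are grouped by vitamin D, the 250 bases before their start sites were searched for the half-site of the vitamin D response element, to which the receptor and its partner bind in pairs. The letters searched on both strands were AGGTCA, as well as AGTTCA, besides these GGGTCA, and finally GGTTCA. Of 32851 RefSeq promoter windows of this length, 38.6% hold at least 1 such half-site, so a match is common. S100g had 3, Trpv6 had 2, Vdr and Trpm6 had 1 each, and none was found in the windows of Slc34a2, Atp2b1 and Atp2b4. The full element, 2 half-sites in the same direction with 3 bases between them, stands in 13 windows, 0.0396% of all, and in none of these genes' windows. The windows of S100g and Trpv6 are shown because they hold the most half-sites, and that of Slc34a2 because this gene, with none, had the lowest P in colitis. Half-sites are in capitals, on either strand.
S100g, chrX:162964600-162964849, minus strand, GRCm38.p6: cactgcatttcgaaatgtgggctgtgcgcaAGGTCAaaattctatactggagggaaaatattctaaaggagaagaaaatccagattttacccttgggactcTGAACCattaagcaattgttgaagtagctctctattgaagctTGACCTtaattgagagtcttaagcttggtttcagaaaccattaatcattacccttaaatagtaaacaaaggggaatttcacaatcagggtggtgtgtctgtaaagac
Trpv6, chr6:41636406-41636655, minus strand, GRCm38.p6: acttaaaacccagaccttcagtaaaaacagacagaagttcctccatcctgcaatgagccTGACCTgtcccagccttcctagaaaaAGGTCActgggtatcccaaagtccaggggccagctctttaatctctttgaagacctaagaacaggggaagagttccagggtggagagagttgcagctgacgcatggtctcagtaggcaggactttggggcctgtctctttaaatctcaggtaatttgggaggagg
Slc34a2, chr5:53049103-53049352, plus strand, GRCm38.p6: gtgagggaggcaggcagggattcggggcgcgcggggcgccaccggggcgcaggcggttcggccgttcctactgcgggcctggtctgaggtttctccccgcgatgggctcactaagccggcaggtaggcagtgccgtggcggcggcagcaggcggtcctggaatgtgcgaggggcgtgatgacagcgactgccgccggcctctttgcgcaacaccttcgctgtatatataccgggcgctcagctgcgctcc
In S100g the half-sites begin 220, 149 and 107 bases before the start site, and in Trpv6 191 and 165 bases before it. These windows also differ in base composition. Slc34a2 has 28 CpG dinucleotides in 250 bases and Atp2b1, with 2 start sites, has 43 and 41. S100g has 2 and Trpv6 has 1, and the median over all windows is 6. A match is a description of these letters and says nothing about binding in these mice.

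In normal mice the levels of the 7 genes spanned more than an order of magnitude. Vdr stood highest at 171 ± 53.9 FPKM (SD, n = 3), followed by S100g at 106 ± 40.2, Atp2b1 at 75.8 ± 13.6, Trpm6 at 57.7 ± 9.83, Slc34a2 at 32.0 ± 10.4, Trpv6 at 15.7 ± 11.8 and Atp2b4 at 9.02 ± 7.14 FPKM. Neighbours in this order overlap in range, except that the lowest Trpm6 value, 51.1 FPKM, lies above the highest Slc34a2 value, 39.3 FPKM. S100g had by far the widest range over the 12 mice, from 2.12 to 729 FPKM, a ratio of 344. Atp2b4 varied 68.0-fold, Trpv6 12.4-fold, Slc34a2 11.8-fold, Trpm6 10.1-fold and Vdr 8.52-fold. Atp2b1 varied least, 3.49-fold.

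**Figure D1:**
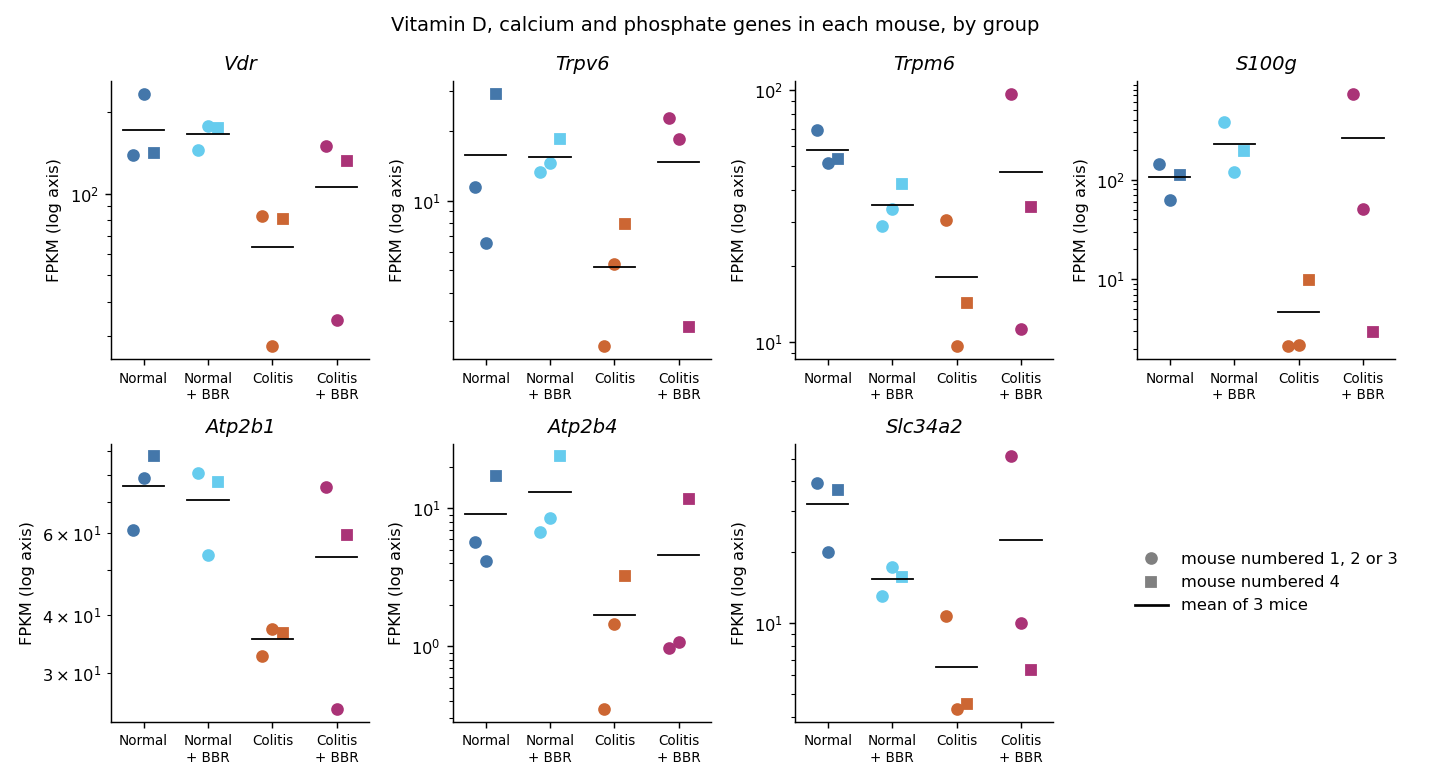
FPKM on a log axis of 7 genes in each of 12 mice, in 4 groups of 3. Circles are mice numbered 1, 2 or 3, squares are mice numbered 4, and lines are group means. The colitis mice lie below every normal mouse for each gene but Trpv6, and the colitis mice with BBR spread from the colitis range to above the normal range for S100g, Slc34a2 and Trpm6.

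Colitis mice were compared with normal mice to see what DSS did in the absence of BBR. All 7 genes had a lower mean in colitis mice, with log2 fold changes from -4.76 to -1.08 and a median of -1.82, beside -0.32 over all genes tested. Over all genes, 73.7% had a log2 fold change below 0. The P limit was passed by 6 of the 7 genes, each lower, against 15.9% of all genes. The adjusted limit was passed by none of the 7 by limma, against 1.08% of all genes, and their adjusted p-values lay between 0.0856 and 0.265. This depends on the fit. With a term for the mice numbered 4, Atp2b4 and Slc34a2 passed it, while the number of all genes past it went from 165 to 1412. With the colitis and normal mice alone, S100g, Atp2b1 and Slc34a2 passed it, beside 488 of all genes. For 6 of the 7 genes every colitis mouse lay below every normal mouse, against 22.2% of all genes that were lower without overlap. The exception in both counts was Trpv6.

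The receptor gene Vdr was at 139, 233 and 141 FPKM in normal mice 1, 3 and 4 and at 82.5, 27.4 and 80.5 FPKM in colitis mice 1, 2 and 4. The groups were apart, and colitis mouse 2 stood far below the other two. The means differed 2.70-fold, with a log2 fold change of -1.55 (SE 0.55, limma P = 0.0153, adjusted p = 0.148, exact p = 0.1). The call rests on single mice, since P was 0.0590 without normal mouse 3 and 0.0792 without colitis mouse 2.

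The calcium channel gene Trpv6 was at 11.5, 6.56 and 29.1 FPKM in normal mice and at 2.34, 5.30 and 7.89 FPKM in colitis mice. Colitis mouse 4 was above normal mouse 3, and both groups have their highest value in the mouse numbered 4. Its log2 fold change was -1.47 (SE 0.74, limma P = 0.0715, adjusted p = 0.265, exact p = 0.2), with an interval from -3.10 to 0.15. P was 0.0333 without normal mouse 3 and 0.0471 without colitis mouse 4, so this gene is near the limit from the other side.

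The magnesium channel gene Trpm6 was at 69.0, 51.1 and 53.0 FPKM in normal mice and at 30.4, 9.59 and 14.2 FPKM in colitis mice. The groups were well apart, with the highest colitis mouse at 30.4 FPKM and the lowest normal mouse at 51.1 FPKM. The log2 fold change was -1.82 (SE 0.62, limma P = 0.0128, adjusted p = 0.139, exact p = 0.1), and P was 0.0570 without colitis mouse 2.

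S100g, the gene of the calcium carrier, showed the widest gap. It was at 143, 63.1 and 111 FPKM in normal mice and at 2.12, 2.19 and 9.79 FPKM in colitis mice. The lowest normal mouse was thus far above the highest colitis mouse, and the means differed 22.5-fold. The log2 fold change was -4.76 (SE 1.45, limma P = 0.00667, adjusted p = 0.111, exact p = 0.1), and it passed the P limit without any 1 of the 6 mice, at -5.47 to -4.39. The table holds no read counts, but the steps between low values give about 11.9, 12.8 and 83.6 reads for the colitis values on the 480-base transcript. A value of 3 reads would be 0.352 to 0.585 FPKM over the 12 mice, so the colitis values are low and above this floor, which covers counting error only.

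Of the calcium pumps, Atp2b1 was at 60.9, 78.9 and 87.6 FPKM in normal mice and at 32.7, 37.4 and 36.5 FPKM in colitis mice. This is the smallest of the fitted changes and, by a ratio of highest to lowest value of 1.14, the tightest colitis group. The SD was 2.51 FPKM around 35.5. The log2 fold change was -1.08 (SE 0.34, limma P = 0.00899, adjusted p = 0.123, exact p = 0.1), and it passed the P limit without any 1 of the 6 mice. Atp2b4 was at 5.67, 4.18 and 17.2 FPKM in normal mice and at 0.35, 1.46 and 3.23 FPKM in colitis mice. Its log2 fold change was -2.51 (SE 0.98, limma P = 0.0253, adjusted p = 0.179, exact p = 0.1), with P at 0.103 without normal mouse 4 and at 0.115 without colitis mouse 1. Atp2b1 in turn missed the P limit with the table centred on the median (P of 0.0675) and in the mice numbered 1 to 3 alone (P of 0.0828). The sum over the 4 pump genes Atp2b1 to Atp2b4 ranged from 66.7 to 105 FPKM in normal mice and from 33.0 to 39.8 FPKM in colitis mice. Atp2b1 made up 76.1% to 98.9% of that sum over the 12 mice, and Atp2b2 and Atp2b3 were at most 0.14 and 0.29 FPKM.

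The phosphate cotransporter gene Slc34a2 was at 39.3, 20.0 and 36.7 FPKM in normal mice and at 10.7, 4.32 and 4.52 FPKM in colitis mice. The means differed 4.91-fold without overlap. Its log2 fold change was -2.35 (SE 0.63, limma P = 0.00311, adjusted p = 0.0856, exact p = 0.1), the lowest P of the 7, and it passed the P limit without any 1 of the 6 mice. The 2 related genes Slc34a1 and Slc34a3, known from the kidney, were at most 0.30 and 0.03 FPKM in any mouse.

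The differences stood in both sets of mice. Between normal mouse 4 and colitis mouse 4 alone, the log2 difference was below 0 for each gene, from -0.81 for Vdr to -3.49 for S100g. Among the mice numbered 1 to 3 it ranged from -0.99 for Atp2b1 to -5.40 for S100g. In the latter mice alone Trpm6 missed the P limit too, at 0.105, while Trpv6 passed it, at 0.0193. Quantile normalization moved the median of all genes from -0.32 to -0.05 and centring on the median moved it to 0.02, and the 7 genes then lay at -4.61 to -1.03 and at -4.42 to -0.74, all below 0.

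**Figure D2:**
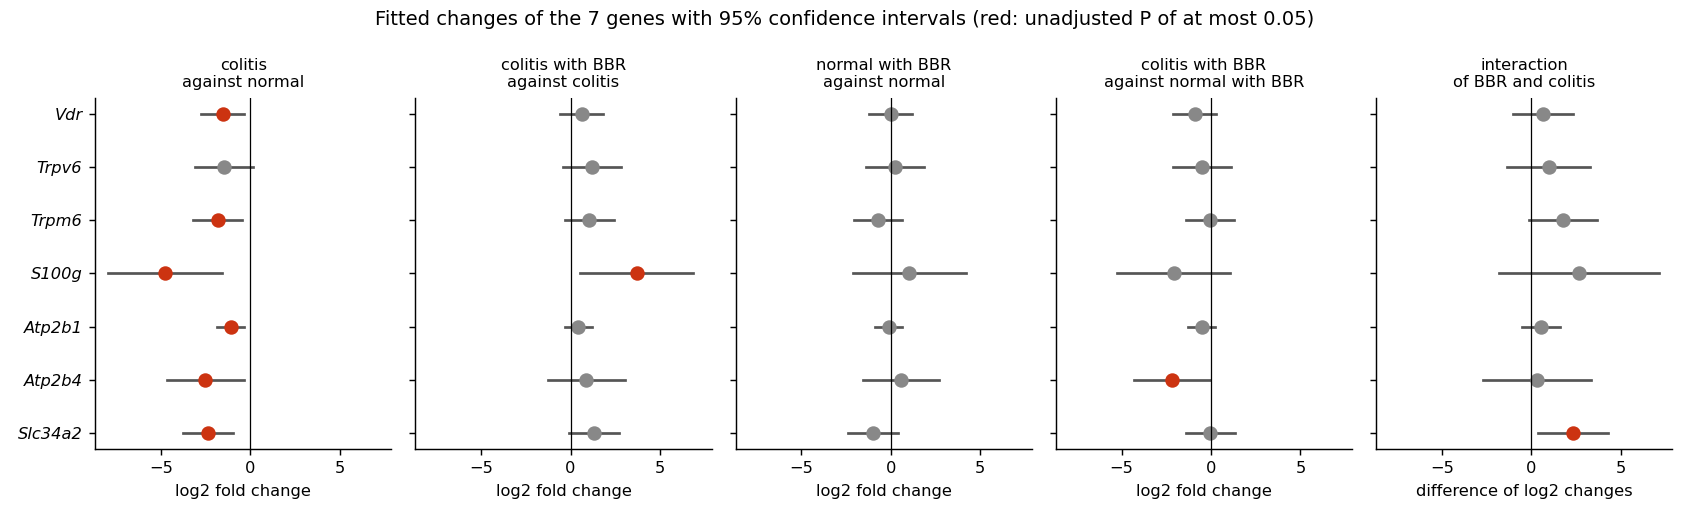
Log2 fold changes of 7 genes with 95% confidence intervals in 4 comparisons, and the difference of the BBR effects in the fifth panel, all on the log2(FPKM + 0.1) scale. Red points have an unadjusted limma P of at most 0.05, which holds for 6 genes in colitis against normal and for 1 gene each in 3 of the other panels.

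Cell type markers moved with the groups as well. Over all genes, 15.9% were lower and 5.56% higher past the P limit. The summed smooth muscle markers, 10 of 10 measured, came to 1721 to 3318 FPKM with water and to 91.3 to 727 FPKM with DSS, with 9 of the 10 lower past the P limit. The leukocyte sum, also 10 of 10 measured, came to 98.2 to 146 FPKM with water and to 199 to 1060 FPKM with DSS, with 7 higher past the P limit. None of the 16 colon epithelium markers passed the P limit by limma, 6 being higher and 10 lower, and their sum came to 17971 to 28433 FPKM with water and to 15339 to 25837 FPKM with DSS. Krt8, Krt19, Lgals4, Car4 and Car1 make up most of that sum. Of the 16, only Slc26a3 separated the groups, at 803 to 1306 FPKM with water and at 361 to 547 FPKM with DSS. Of the enteric neuron and glia markers, 2 of 10 were lower past the P limit and 1 was higher, near the shares of all genes. Their sum was at 21.4 to 37.0 FPKM in normal and 14.3 to 38.2 FPKM in colitis mice. Of 7 squamous epithelium markers tested, 2 were higher past the P limit, with sums of 9.47 to 66.2 and 41.9 to 444 FPKM, mostly from Sprr1a, while Krt5 and Krt4 were at most 0.12 and 0.03 FPKM. Of 7 small intestinal markers tested, 3 were higher and 1 lower past the P limit, with sums of 33.6 to 103 and 49.5 to 150 FPKM.

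Set against the epithelial sum of the same mouse, 5 of the 7 genes were lower in colitis mice without overlap, against 5.88% of all genes on this scale. S100g was at 2.22 to 6.21 FPKM per 1000 FPKM of epithelial markers in normal mice and at 0.0848 to 0.638 in colitis mice. Vdr was at 6.02 to 8.21 and 1.06 to 5.25, Trpm6 at 1.80 to 2.99 and 0.371 to 1.22, Slc34a2 at 0.705 to 2.04 and 0.167 to 0.430, and Atp2b1 at 2.64 to 4.88 and 1.31 to 2.38 in the same units. Trpv6 and Atp2b4 overlapped. Per 1000 FPKM of smooth muscle markers Atp2b4 was at 2.73, 2.43 and 5.19 in normal mice 1, 3 and 4 and at 3.83, 2.12 and 4.44 in colitis mice 1, 2 and 4, so the groups overlapped on this scale. The part of muscle, leukocytes and epithelium in these differences was not tested.

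**Figure D3:**
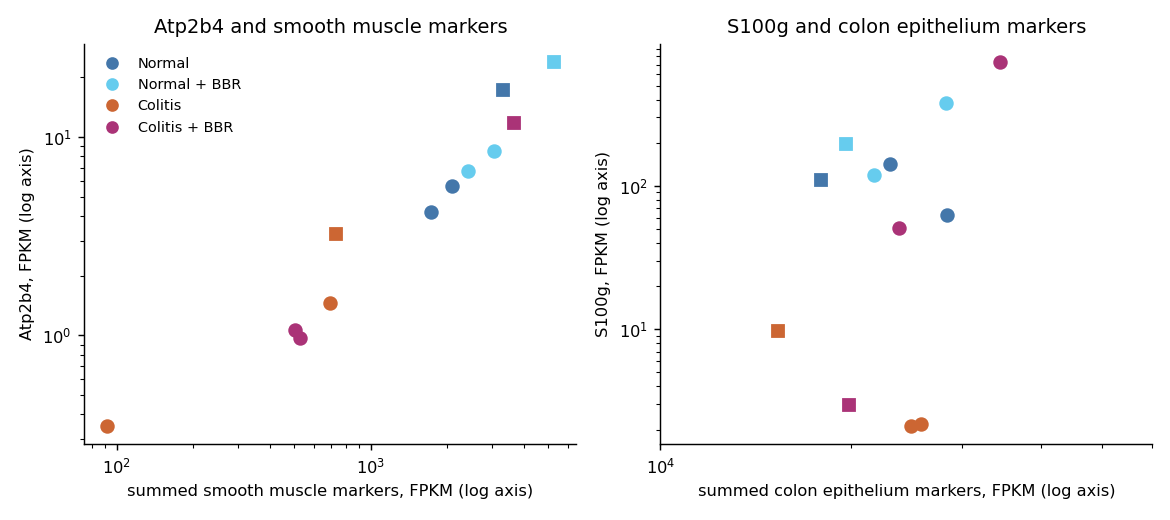
FPKM of Atp2b4 against the sum of 10 smooth muscle markers, and of S100g against the sum of 16 colon epithelium markers, both on log axes, in 12 mice coloured by group, with squares for mice numbered 4. Mice with a low muscle sum have low Atp2b4 in every group, whereas S100g spans 2.12 to 729 FPKM over epithelial sums of 15339 to 34401 FPKM.

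Colitis mice with BBR were compared with colitis mice to see what BBR did during colitis. All 7 genes had a log2 fold change above 0, from 0.44 to 3.71 with a median of 1.05, beside -0.09 over all genes, of which 38.0% were above 0. The P limit was passed by 1 of the 7, against 1.19% of all genes that were higher past it, and none of the 7 separated the groups without overlap, against 7.08% of all genes in either direction. This comparison shares the colitis mice with the one above.

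S100g was at 2.12, 2.19 and 9.79 FPKM in colitis mice 1, 2 and 4 and at 729, 50.5 and 2.95 FPKM in colitis mice with BBR 2, 3 and 4. Mouse 2 was above every normal mouse, mouse 3 was below the lowest of them, and mouse 4, at about 23.8 reads, lay within the colitis range. The log2 fold change was 3.71 (SE 1.45, limma P = 0.0253, adjusted p = 0.669), and the exact permutation test gave p = 0.2. The call was lost without colitis mouse 1 (P of 0.0710), colitis mouse 2 (0.0712), BBR mouse 2 (0.118) or BBR mouse 3 (0.0523), with log2 fold changes of 1.75 to 5.70 over the 6 mice left out, and with the 2 compared groups fitted alone (0.0712). Between the mice numbered 4 the log2 difference was -1.70, whereas it was 6.41 among those numbered 1 to 3.

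The other 6 genes did not pass the P limit. Slc34a2 came nearest, at 51.1, 10.04 and 6.35 FPKM in colitis mice with BBR 2, 3 and 4, with a log2 fold change of 1.31 (SE 0.63, interval -0.08 to 2.69, limma P = 0.0617, exact p = 0.3), and with the replicate block its P was 0.0382. Trpm6 was at 96.4, 11.3 and 34.2 FPKM, with a log2 fold change of 1.05 (interval -0.31 to 2.41, limma P = 0.117, exact p = 0.4). Trpv6 was at 22.9, 18.6 and 2.85 FPKM in these mice, with a log2 fold change of 1.20 (interval -0.43 to 2.82). Here too the mouse numbered 4 was low, and Trpv6 differed by -1.44 on the log2 scale between the mice numbered 4 and by 2.51 among the others, with a P of 0.000581 in a fit of the latter alone. Vdr was at 150, 34.2 and 132 FPKM, Atp2b1 at 75.4, 25.1 and 59.3 FPKM and Atp2b4 at 0.97, 1.07 and 11.7 FPKM. Their log2 fold changes were 0.63 (interval -0.56 to 1.82), 0.44 (interval -0.31 to 1.20) and 0.89 (interval -1.25 to 3.02).

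The colitis mice with BBR thus differed from each other more than the mice of the other groups did. Each of the 7 genes had its widest range on the log2 scale in this group, as did 44.5% of all genes tested. For S100g the highest value was 247 times the lowest, against 2.27 times in normal mice, 3.16 times in normal mice with BBR and 4.62 times in colitis mice. Mouse 2 was the highest of the 3 for 6 of the 7 genes, as for 15.7% of all genes. It was above every normal mouse for S100g, Slc34a2 and Trpm6, as for 11.7% of all genes. Atp2b4 was the exception, with its lowest value in mouse 2. Mouse 3 was the lowest of the 3 for Vdr, Trpm6 and Atp2b1, near its share of 37.3% of all genes. Mouse 4 was the lowest for S100g, Slc34a2 and Trpv6, as for 18.1% of all genes. The leukocyte sums were 337, 355 and 95.9 FPKM in mice 2, 3 and 4 and the smooth muscle sums were 525, 505 and 3668 FPKM, so the mouse with the least S100g had the fewest leukocyte and the most muscle marker transcripts. The epithelial sums were 34401, 23825 and 19893 FPKM. How these sums bear on the 7 genes was not tested. Without mouse 3 the P limit was passed by Vdr, Trpm6, Atp2b1 and Slc34a2 but no longer by S100g, and without mouse 4 by S100g, Trpv6 and Slc34a2. The number of all genes past it, 978 with all mice, was 1653 and 1662 without these mice. Without mouse 2 none of the 7 genes passed it, and 496 of all genes did.

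In mice without DSS, the question was whether BBR alone moved these genes. None of the 7 passed the P limit by limma, against 1.36% of all genes. The 2 genes that separated the groups were both lower, against 5.46% of all genes that were lower without overlap. Slc34a2 was at 13.1, 17.4 and 15.7 FPKM in normal mice with BBR 1, 3 and 4, below each of the normal mice at 39.3, 20.0 and 36.7 FPKM, with a log2 fold change of -1.003 (SE 0.63, limma P = 0.140) and an exact permutation p of 0.1, the smallest possible. Trpm6 was at 28.8, 33.8 and 42.4 FPKM against 69.0, 51.1 and 53.0 FPKM, with a log2 fold change of -0.72 (SE 0.62, limma P = 0.267) and the same exact permutation p of 0.1. In a fit of these 6 mice alone, these 2 genes passed the P limit and none of the 7 passed the adjusted limit, while the number of all genes past the P limit went from 208 to 752. Slc34a2 differed by -1.22 between the mice numbered 4 and by -0.89 among the others, and Trpm6 by -0.32 and -0.93.

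S100g was at 377, 119 and 195 FPKM in normal mice with BBR and at 143, 63.1 and 111 FPKM in normal mice. The mean was 2.18-fold higher, the groups overlapped, and the log2 fold change of 1.04 had an interval from -2.12 to 4.20. It was 0.81 between the mice numbered 4 and 1.16 among the others. Of the other 4 genes, Vdr differed by -0.01 (interval -1.20 to 1.18), Atp2b1 by -0.11 (interval -0.86 to 0.64), Trpv6 by 0.23 (interval -1.40 to 1.85) and Atp2b4 by 0.57 (interval -1.56 to 2.71). Trpv6 differed by -0.65 between the mice numbered 4 and by 0.67 among the others, and Vdr by 0.31 and -0.17.

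Colitis mice with BBR were then compared with normal mice with BBR, a comparison that shares no mouse with that of colitis against normal mice. All 7 genes had a log2 fold change below 0, as did 80.1% of all genes, and the median of -0.52 was close to that of all genes at -0.40. The P limit was passed by 1 gene, Atp2b4, against 17.3% of all genes that were lower past it. That share is 2647 genes, which became 900 with quantile normalization and 622 with centring on the median. In either direction 3010 genes passed, and 1446 to 5915 without single mice. The adjusted limit was passed by none by limma, against 0.0392% of all genes, a share made of 6 genes that ranged from 0 to 2255 genes without single mice. Without colitis BBR mouse 4, where it was 2255, 1 of the 7, Atp2b4, passed too. No gene separated the groups, against 18.0% that were lower without overlap. Atp2b4 was at 6.73, 8.53 and 23.8 FPKM in normal mice with BBR and at 0.97, 1.07 and 11.7 FPKM in colitis mice with BBR, with a log2 fold change of -2.19 (SE 0.98, limma P = 0.0451, adjusted p = 0.250, exact p = 0.3). The call was lost without normal BBR mouse 3 (P of 0.0615), normal BBR mouse 4 (0.159), colitis BBR mouse 2 (0.163) or colitis BBR mouse 3 (0.153). Smooth muscle sums were 2424 to 5266 FPKM in the first group and 505 to 3668 FPKM in the second. Atp2b4 differed by -1.02 between the mice numbered 4 and by -2.78 among the others. S100g differed by -2.09 (SE 1.45, limma P = 0.174, exact p = 0.5), with -6.00 between the mice numbered 4 and -0.14 among the others. Without colitis BBR mouse 2 it differed by -4.05 (P of 0.00248), and Vdr and Atp2b1 passed the P limit as well. The mean of S100g in FPKM was higher in colitis mice with BBR, 261 against 230.3, as were those of Trpm6, 47.3 against 35.0, and Slc34a2, 22.5 against 15.4, with mouse 2 the highest of its group for each. Vdr differed by -0.91, Atp2b1 by -0.52 and Trpv6 by -0.51, the last with -2.65 between the mice numbered 4 and 0.57 among the others. Trpm6 and Slc34a2 differed by -0.05 and -0.04, with intervals of -1.40 to 1.31 and -1.42 to 1.34, and both lay above 0 under quantile normalization, at 0.16 and 0.23.

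The BBR effect in colitis mice was set against that in normal mice as an interaction in the fit. It was above 0 for all 7 genes, with a median of 0.97 beside -0.08 over all genes, and passed the P limit for 1 gene, Slc34a2, against 0.699% of all genes that were higher past it. For Slc34a2 the difference of the log2 changes was 2.31 (SE 0.89, interval 0.35 to 4.27, limma P of 0.0245), made of a value of -1.003 in normal mice and of 1.31 in colitis mice. It did not pass the adjusted limit, with an adjusted p of 0.9998, and P was 0.0532 without normal mouse 1, 0.0556 without colitis mouse 2, 0.0528 without colitis mouse 4 and 0.0513 in the mice numbered 1 to 3 alone. Trpm6 had the same order of groups, with a difference of 1.78 (SE 0.88, limma P of 0.0668), and S100g had 2.67 (SE 2.05, limma P of 0.218). Both depended on single mice. Without colitis BBR mouse 3 Trpm6 had 2.55 (P of 0.00264), without colitis mouse 1 its P was 0.0278, and with quantile normalization it was 0.0444. Without colitis BBR mouse 4 S100g had 4.66 (P of 0.00488), and in the mice numbered 1 to 3 alone it had 5.25 (P of 0.0163).

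Beyond these genes, 8 lists of vitamin D, calcium, magnesium and phosphate handling were counted, also chosen with earlier results of these data known. They hold 99 genes with the 8 above, of which 93 have a row and 74 were tested. In colitis against normal mice, 61 of the 74 were lower and 13 higher, with 23 lower and 6 higher past the P limit, against 15.9% and 5.56% of all genes. Without the 7 genes it was 17 lower and 6 higher of 67, with a median log2 fold change of -0.55 beside -0.32. In the list of calcium entry, buffering and extrusion all 11 genes tested were lower and 7 passed the limit, 3 of which, S100g, Atp2b1 and Atp2b4, are described above. Among the others are Slc24a3, a sodium, calcium and potassium exchanger, with a mean of 9.59 ± 2.84 FPKM in normal and 1.78 ± 1.10 FPKM in colitis mice (log2 fold change -2.51, adjusted p = 0.0811), and Calb2, the calretinin gene of enteric neurons, at 9.06 ± 1.66 and 2.47 ± 1.94 FPKM (log2 fold change -2.22, adjusted p = 0.103). In the list of vitamin D metabolism and its receptor, 9 of 10 genes were lower and 1, Vdr, passed the P limit, near the share of all genes. Its partner Rxra was at 23.1 ± 2.84 and 14.8 ± 5.66 FPKM (adjusted p = 0.256).

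Of 10 phosphate genes tested, 5 were lower and 2 higher past the P limit, against 15.9% and 5.56% of all genes. Slc20a1, the gene of the phosphate transporter PiT-1, was far more abundant per length than Slc34a2, at 837, 1133 and 492 FPKM in normal mice and at 112, 52.5 and 83.9 FPKM in colitis mice. The log2 fold change was -3.29 (SE 0.90, adjusted p = 0.0914), and it passed the P limit without any 1 of the 6 mice. In colitis mice with BBR 2, 3 and 4 it was at 952, 32.3 and 293 FPKM, again from above most normal mice to below every colitis mouse. Klb, the gene of the FGF coreceptor beta-Klotho, was lower, at 8.39 ± 0.731 and 3.34 ± 2.45 FPKM (adjusted p = 0.222), a call past the P limit that was kept without 1 of the 6 mice, colitis mouse 1, and lost without each of the others. The 2 higher genes encode alkaline phosphatases, Alpi at 0.733 ± 0.162 and 2.69 ± 2.05 FPKM and Alpl at 0.433 ± 0.172 and 3.21 ± 3.42 FPKM. The call of Alpi was lost without 4 of the 6 mice, at log2 fold changes of 0.86 to 2.10, and that of Alpl without 2, normal mouse 3 and colitis mouse 2, at 1.23 to 2.90. Of 14 magnesium genes tested, Trpm6 and Cnnm1 were lower and Nipal1 higher past the P limit, near the shares of all genes, and Trpm7, the close relative of Trpm6, was at 10.7 ± 0.648 and 10.5 ± 1.12 FPKM, with a log2 fold change of -0.02 (interval -0.42 to 0.37).

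Among 8 other genes known to respond to vitamin D, 5 were lower and 2 higher past the P limit, against 15.9% and 5.56% of all genes. Slc37a2, a sugar phosphate transporter gene, was at 231 ± 57.3 and 18.9 ± 10.98 FPKM (log2 fold change -3.81, adjusted p = 0.0652). Abcb1a, the gene of the drug pump P-glycoprotein, was at 258 ± 84.5 and 87.3 ± 18.2 FPKM (log2 fold change -1.54, adjusted p = 0.126). Spp1, the osteopontin gene, was the only listed gene past the adjusted limit. It was at 0.06, 0.11 and 0.39 FPKM in normal mice and at 1.13, 5.33 and 1.78 FPKM in colitis mice (log2 fold change 3.19, adjusted p = 0.0477 by limma), and the adjusted limit was missed without any 1 of the 6 mice. Of the 14 genes of intracellular calcium stores, 10 were lower and 4 higher, with Itpr1 and Itpr2 lower and Atp2c1 higher past the P limit, near the 73.7% lower and the 15.9% lower past the limit among all genes. Of 4 genes of calcium hormones and sensing, 3 were lower and 1 higher. Pth1r, which was lower, passed the P limit, against 15.9% of all genes lower past it. The 3 paracellular claudins tested were lower, none past the P limit by limma.

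With BBR in colitis, 42 of the 74 listed genes were higher and 32 lower, with 3 higher and 5 lower past the P limit, against 1.19% and 5.20% of all genes. The 3 were S100g, Bglap and Slc30a10, and the 5 were Alpi, Alpl, Atp2c1, Slc41a3 and Spp1. Slc30a10, which encodes a manganese exporter, was at 8.11, 4.19 and 5.81 FPKM in normal mice, at 0.72, 0.86 and 0.18 FPKM in colitis mice and at 36.6, 3.56 and 6.80 FPKM in colitis mice with BBR. No value of the colitis mice reached those of either other group. Its log2 fold change was -3.29 in colitis against normal mice (SE 0.72, adjusted p = 0.0537) and 4.01 with BBR (SE 0.72, adjusted p = 0.299), both past the P limit without any 1 of the 6 mice. In normal mice BBR left 1 of 74 listed genes past the P limit, Orai2, which was lower, against 1.36% of all genes. In colitis with BBR against normal with BBR, 15 of the 74 were lower and 1, Orai1, higher past the P limit, against 17.3% and 2.37% of all genes, with Slc24a3 among them at -2.19 (adjusted p = 0.215). In the interaction, 2 genes were past the P limit above 0, Slc30a10 and Slc34a2, and 2 below 0, Spp1 and Trpm7, against 0.699% and 1.72% of all genes. The call of Trpm7 was lost without 6 of the 12 mice left out in turn.

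**Figure D4:**
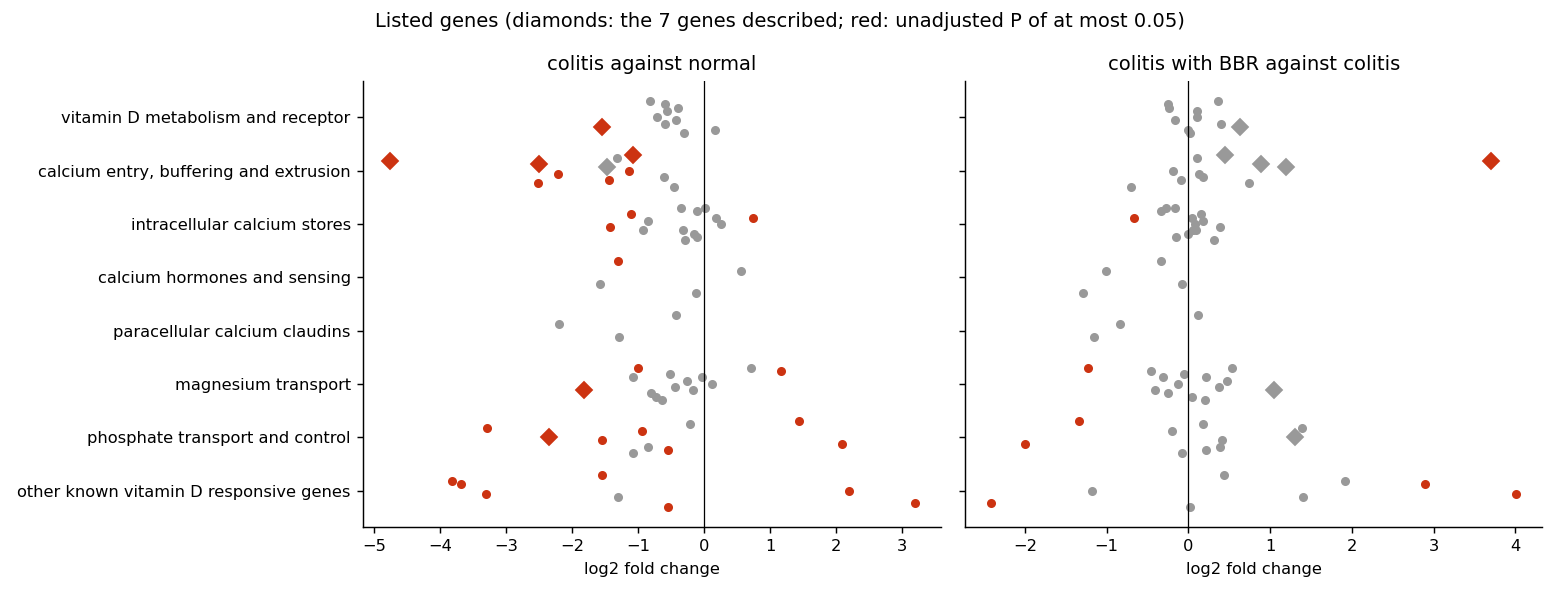
Log2 fold changes on the log2(FPKM + 0.1) scale of 74 listed genes in 8 lists, in colitis against normal mice and in colitis mice with BBR against colitis mice. Diamonds are the 7 genes described and red marks an unadjusted limma P of at most 0.05. In the first panel 61 of the 74 points lie below 0, and in the second 42 lie above 0.

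The genes whose pattern over the 12 mice was nearest to each of the 7 were sought among 11942 genes with a mean of at least 1 FPKM. The measure was the root mean square difference between log2 profiles, each centred on its own mean, and it describes these mice with no test. Atp2b4 had the nearest neighbours, Ppp1r12b at 0.19, Dmpk at 0.21 and Smtn at 0.22, beside a root mean square of 1.69 for its own profile. Ppp1r12b encodes a myosin phosphatase subunit and Smtn is 1 of the 10 smooth muscle markers. Atp2b1 lay nearest to Scnn1a at 0.21, Plekhg6 at 0.22 and Igsf3 at 0.24, of which Scnn1a encodes a subunit of the epithelial sodium channel. Vdr lay nearest to Pdk2 at 0.27, Abat at 0.29 and Retsat at 0.29. Trpm6 lay nearest to Bco2 at 0.34, Vwa3b at 0.42 and Fam161a at 0.42. The nearest of all genes to Slc34a2 was Trpm6 at 0.55, ahead of Cyp4f16 at 0.58. Trpv6 had no near neighbour, with Mfap5 at 0.77, Thrsp at 0.79 and Gfpt2 at 0.79 beside 1.10 for its own profile. S100g had none either. Its nearest was Slc30a10 at 1.77, then H4c14 at 1.88 and Naaladl1 at 1.95, beside 2.80 for its own profile.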

How the data were processed

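Mice were grouped by the labels, and the mouse numbers come from the labels too. The authors filtered reads with SOAPnuke, aligned them with Bowtie2 2.2.5 and estimated expression with RSEM 1.2.12. The submitters' processing notes name the build mm9. The study's methods describe rRNA depletion and single-end reads of 50 bases, whereas the labels name another library kit. The authors deposited a single value for each gene in each mouse. The deposited values are taken to be FPKM, made by the authors from the RSEM estimates, after their totals and steps, since no source states the unit, and TPM is possible too. Genes whose mean over the 12 mice reached 0.1 FPKM, 15315 in all, were fitted on the log2(FPKM + 0.1) scale by limma 3.58.1 (R 4.3.3). The model had a mean for each of 4 groups and a variance trend on mean expression. The pseudocount understates changes of low genes. The P limit of 0.05 without adjustment is the study's. The fit was tested on simulated data. Marker sums, reads, promoters and exact permutation tests were computed in Python 3.11.15 with pandas 2.3.3 and NumPy 2.4.6. Promoter windows are RefSeq's in GRCm38.p6, and 7 of 7 genes matched. The worth of 1 read was read from the steps between low values of single-transcript genes of GENCODE M21, and a floor of 3 reads covers counting error only. The genes and lists were chosen with earlier results of these data known. The text names these genes, listed genes past the P limit in a comparison and the 3 nearest patterns per gene, and, chosen after their values were seen, Rxra and the close relatives of Atp2b1 and Slc34a2. One of the nearest patterns is not reported here. Alternatives were other pseudocounts, filters and scalings, no trend, the compared groups alone, a replicate block, a term for the mice numbered 4, the other 8 mice alone, and leaving out each mouse. For the named listed genes these were added after seeing the data. Nothing says that the 3 mice of a group were housed apart, so P values measure the spread between these mice.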

Additional observations from a re-analysis of the deposited data

Results flagged for a closer look

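In the interaction of BBR and colitis, 371 of the 15315 genes tested passed the P limit and none passed the adjusted limit. For Slc34a2, the test of the difference in BBR effect between colitis and normal mice passed the unadjusted P limit only. The difference of the log2 changes was 2.31 (SE 0.89, limma P of 0.0245), with an adjusted p of 0.9998 over the 15315 genes, so it fails the correction. Every normal mouse with BBR lay below every normal mouse for Slc34a2 (exact permutation p = 0.1), and the 2 colitis groups overlapped (exact permutation p = 0.3). Leaving out 1 mouse at a time gave 1.42 to 2.92, with 9 of 12 fits past the P limit, and P was 0.0513 in the mice numbered 1 to 3 alone, where the difference was 2.61.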

How the results depend on the processing

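The 7 genes were refitted under 11 alternatives and without each mouse, which gave 630 values in the 5 comparisons. Of these, 26 changed sign and 13 newly passed the adjusted limit, and in colitis against normal mice none changed sign. There, 0 genes passed the adjusted limit in the fit as reported, but 3 did with the compared groups alone, 3 with the replicate block, 2 with a term for the mice numbered 4 and 2 in the mice numbered 1 to 3 alone. Of all genes 165 passed it as reported, 488, 734, 1412 and 804 under these settings, 71 with a mean of at least 1, 91 with a pseudocount of 0.01, 258 with quantile normalization and 11 to 211 without single mice. For colitis with BBR against colitis, the 1 gene past the P limit became 0 with the compared groups alone, 2 with the replicate block, 2 in the mice numbered 1 to 3 alone and 0 to 4 without single mice. With BBR in normal mice, 0 became 2 with the compared groups alone. For colitis with BBR against normal with BBR, 1 became 0 with quantile normalization, centring or no trend, 2 with the replicate block and 0 to 3 without single mice, and past the adjusted limit 0 became 1 with a term for the mice numbered 4, 1 in the mice numbered 1 to 3 alone and 0 to 1 without single mice, while of all genes 6 became 268 and 2302 under the first 2 settings. For the interaction, 1 became 2 with quantile normalization or the replicate block, where Trpm6 joined Slc34a2, 2 in the mice numbered 1 to 3 alone, where Trpv6 and S100g passed and Slc34a2 did not, and 0 to 4 without single mice. The causes were not tested.

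Signs changed mostly where the value was near 0. With BBR in normal mice, Vdr was 0.020 with quantile normalization, 0.026 with centring, 0.24 without normal mouse 3 and 0.09 without normal BBR mouse 1, Trpv6 was -0.26 without normal mouse 3, and Atp2b1 was 0.00092 without normal mouse 4 and 0.073 without normal BBR mouse 3. Without single mice these genes ranged from -0.14 to 0.24, from -0.26 to 0.81 and from -0.26 to 0.073. In colitis with BBR against normal with BBR, Trpm6 was 0.16 with quantile normalization, 0.40 with centring, 0.083 in the mice numbered 1 to 3 alone, 0.099 without normal BBR mouse 4 and 0.73 without colitis BBR mouse 3. Slc34a2 was 0.23 with quantile normalization, 0.41 with centring, 0.59 in the mice numbered 1 to 3 alone, 0.05 without normal BBR mouse 3, 0.24 without colitis BBR mouse 3 and 0.57 without colitis BBR mouse 4. Trpv6 was 0.57 in the mice numbered 1 to 3 alone and 0.43 without colitis BBR mouse 4. Without single mice Trpm6 ranged from -0.81 to 0.73, Slc34a2 from -0.93 to 0.57 and Trpv6 from -1.05 to 0.43. For Atp2b4, colitis with BBR against colitis was -0.25 without BBR mouse 4, and the interaction was -0.21 in the mice numbered 1 to 3 alone, -0.29 without normal mouse 4, -0.04 without normal BBR mouse 1, -0.47 without colitis mouse 1 and -0.82 without colitis BBR mouse 4, with ranges of -0.25 to 1.55 and of -0.82 to 0.98 without single mice. Over all genes, the share of calls past the P limit that were higher in colitis against normal was 26.0%, and 49.5% and 53.7% with quantile normalization and centring, and for colitis with BBR against normal with BBR it was 12.1%, 52.5% and 63.5%. For colitis with BBR against colitis it was 18.6%, 43.5% and 46.1%, and for the interaction 28.8%, 54.9% and 62.5%.

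The mouse numbers in the labels did not count as pairing. Of 13 pairs of mice from different groups with the same number, the correlation of deviations from the group means over genes was 0.078 to 0.751. The 6 pairs numbered 4 lay at 0.357 to 0.751. The 7 pairs numbered 1 to 3 lay at 0.078 to 0.386, with a mean of 0.205. Among those mice, 17 pairs of different numbers lay at -0.15 to 0.456, with a mean of 0.193. The listed genes past the P limit with BBR in colitis were 8, and 22 without BBR mouse 3, 15 without BBR mouse 4 and 4 without BBR mouse 2 or with the compared groups alone. In colitis with BBR against normal with BBR they were 16, and 6 to 32 without single mice, 9 with quantile normalization, 6 with centring and 28 in the mice numbered 1 to 3 alone. With BBR in normal mice 1 became 7 with the compared groups alone and 5 with the replicate block, and in the interaction 4 became 7 with the replicate block. Depth is known only from the steps of low values, and 3 mice a group limit each comparison.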
